A study of Homo sapiens with 9 samples.

Results

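The genes described here encode 9 proteins that mesenchymal cells lay down in the extracellular matrix, leaving the collagens aside, together with transgelin, a cytoskeletal protein of the same cells: MGP, FBLN5, DCN, LUM, POSTN, FN1, SPARC, BGN, TAGLN and LOX. They were taken as a named list of 10 of the 19775 genes measured, and every probe set annotated to only 1 of them was used, 34 in all. Each gene was read mainly at its brightest probe set, judged by the mean of the 9 arrays. The study set 3 established human embryonic stem cell lines, Shef3, H14 and Shef1, on Affymetrix 3' arrays before and after differentiation toward otic progenitors, which build the inner ear in the embryo. The group called hESC held undifferentiated cells at day 0, grown on inactivated mouse embryonic fibroblasts in serum replacement medium with basic FGF. The group called DFNB held dissociated cells on laminin after 14 days in a serum-free mixture of DMEM and F12 with N2 and B27. The group called FGF3+10 held cells that spent the same 14 days in this medium plus FGF3 (50 ng/ml) and FGF10 (50 ng/ml). Every group had 3 arrays, 1 per cell line, so the spread within a group is the spread between lines, and no culture of a line was repeated. The labels do not state whether feeder cells were removed before the RNA of the hESC group was taken.

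Mesenchymal cells surround themselves with a network of collagen fibrils, elastic fibres and fibronectin, and non-collagen proteins set how that network is assembled. Small leucine-rich proteoglycans bind collagen and regulate the width and spacing of its fibrils. Fibulins and lysyl oxidases build and cross-link elastic fibres, fibronectin links fibrils to integrins on the cell surface, and matricellular proteins such as SPARC and periostin modulate how cells adhere. In cultures of embryonic stem cells, such genes are known as markers of fibroblast-like and other mesodermal or neural crest derivatives, and neural and placodal epithelia make little of most of them.

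Levels are the deposited values, which are on a log scale with no stated base, taken as log2, and each array has a median of 3.20. Values have no lower bound, from -14.39 to 13.35, and a level of 4 is used below as the mark for dim values. Levels of different probe sets are not compared with each other. The 3 arrays of Shef1 had poly-A spike-in levels of 7.21 to 7.28, against 4.72 to 5.43 on the 6 others. The GAPDH 3' minus 5' difference, a sign of RNA quality, was 0.23 to 0.53 in hESC, 0.18 to 0.21 in DFNB and 0.14 to 0.31 in FGF3+10. That of ACTB was 0.54 to 0.69 on the arrays of Shef1 and 0.08 to 0.52 on the 6 others. Of 13 measured pluripotency markers, 12 or 13 stood at or above 4 on each hESC array; at day 14 the number was 7 and 6 in Shef3 (DFNB and FGF3+10), 9 and 10 in H14 and 12 on both arrays of Shef1. Of 5 otic markers, PAX8 and GATA3 reached 4 on all 9 arrays, EYA1 on 5 of the 6 day 14 arrays, DLX5 on 4 and PAX2, an early otic placode factor, on 2. The RNA comes from whole cultures, in which fewer cells of a type and less RNA per cell cannot be told apart.

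Decorin, lumican and biglycan are small leucine-rich proteoglycans, and the genes of the first pair, DCN and LUM, lie near each other on chromosome 12. DCN stood at 6.06 (Shef3), 7.01 (H14) and 6.86 (Shef1) in hESC, at 11.48, 9.42 and 7.70 in DFNB, and at 9.76, 8.52 and 5.98 in FGF3+10. Every DFNB array lay above every hESC array, whereas the FGF3+10 arrays reached from below the hESC arrays to far above them. LUM stood at 9.39, 10.07 and 9.21 in hESC, at 11.12, 10.24 and 9.09 in DFNB, and at 10.37, 9.38 and 6.73 in FGF3+10. Its groups overlapped throughout, and the lowest value was that of Shef1 with the FGFs. BGN stood at 2.49, 5.81 and 7.31 in hESC, at 7.68, 8.31 and 6.98 in DFNB, and at 8.24, 6.06 and 4.76 in FGF3+10. The order of the lines was thus Shef1, H14, Shef3 from high to low at day 0 and the opposite with the FGFs.

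Fibulin-5 guides the assembly of elastic fibres, and lysyl oxidase, the product of LOX, cross-links elastin and collagen. FBLN5 stood at 1.69 (Shef3), 3.62 (H14) and 2.90 (Shef1) in hESC, at 7.04, 6.61 and 3.78 in DFNB, and at 7.28, 3.43 and 0.73 in FGF3+10. All hESC values were dim, and only the Shef3 arrays of both media and the H14 array in DFNB reached 4. LOX stood at 7.82, 7.01 and 8.40 in hESC, at 9.48, 10.53 and 9.31 in DFNB, and at 9.76, 7.13 and 7.34 in FGF3+10. Its DFNB arrays did not overlap with hESC, and with the FGFs only Shef3 remained above all hESC arrays.

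Fibronectin, the product of FN1, is an adhesive glycoprotein of the matrix, and periostin (POSTN) and SPARC are matricellular proteins that bind collagen. POSTN stood at 8.27 (Shef3), 8.42 (H14) and 9.76 (Shef1) in hESC, at 10.70, 10.94 and 10.47 in DFNB, and at 10.48, 9.17 and 9.12 in FGF3+10. The DFNB arrays lay close together and above all hESC arrays, at a mean of 10.70 ± 0.23 (SD, n = 3) against 8.82 ± 0.82. SPARC stood at 11.23, 11.09 and 11.21 in hESC, at 12.09, 12.21 and 11.33 in DFNB, and at 11.79, 11.18 and 10.89 in FGF3+10. Its hESC arrays were the tightest of any group, at 11.18 ± 0.07. FN1 stood at 12.46, 12.16 and 11.81 in hESC, at 12.45, 12.91 and 11.72 in DFNB, and at 12.45, 11.86 and 10.81 in FGF3+10. In Shef3 it was nearly level over the 3 groups, while in H14 and Shef1 the array with the FGFs was the lowest.

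Matrix Gla protein (MGP) is a vitamin K-dependent inhibitor of calcification, and transgelin (TAGLN) is an actin-binding protein of smooth muscle and fibroblasts that is itself no part of the matrix. MGP stood at -4.97 (Shef3), 0.29 (H14) and 4.40 (Shef1) in hESC, at 10.34, 4.95 and 2.74 in DFNB, and at 8.57, -3.97 and -1.30 in FGF3+10. Only 4 of the 9 arrays reached 4, so that most of its differences set a dim value against a brighter one and their size is not a fold. TAGLN stood at 11.92, 10.53 and 10.41 in hESC, at 11.68, 12.26 and 10.97 in DFNB, and at 12.08, 10.47 and 9.47 in FGF3+10. Shef3 kept a like level in all groups, and H14 was high only in DFNB.

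**Figure D1:**
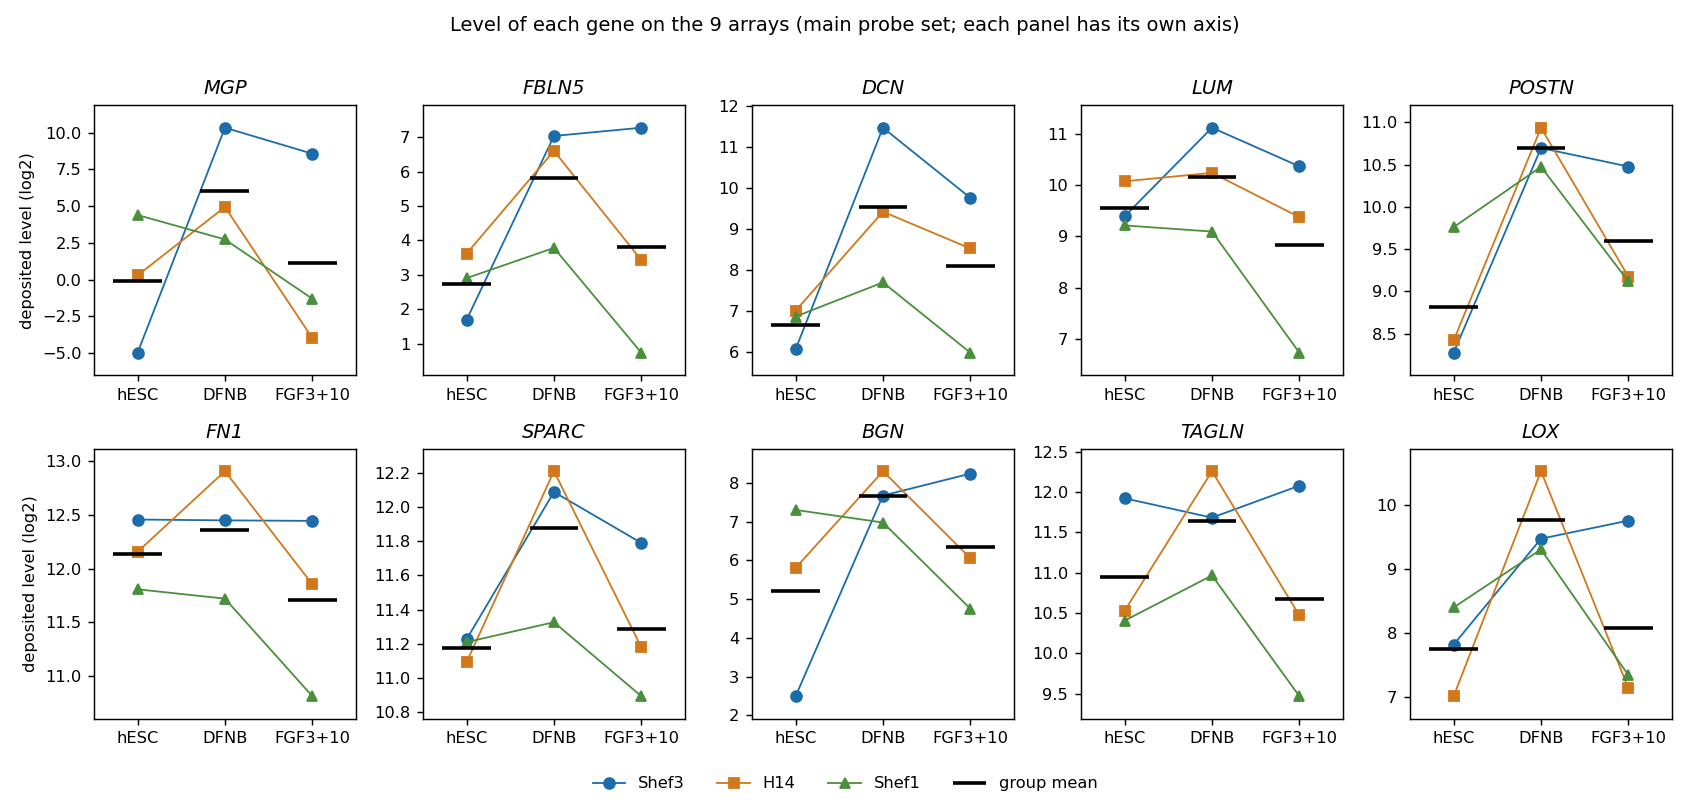
Deposited log2 level (vertical axes, 1 scale per panel) of the main probe set of each gene in the hESC, DFNB and FGF3+10 groups; points are arrays, thin lines join the arrays of a cell line and black bars are group means (n = 3). For H14 and Shef1 every panel goes down from DFNB to FGF3+10, while for Shef3 the 2 media lie closer together for most genes.

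The first comparison asks how these genes changed over 14 days in the medium without added FGFs. All 10 members had a higher mean in DFNB than in hESC, but none passed in limma (adjusted p = 0.155 to 0.856), where 0.202% of all genes were called. The median log2 change of the members was 1.96, against -0.19 over all genes. For 5 members, FBLN5, DCN, POSTN, SPARC and LOX, all DFNB arrays lay above all hESC arrays, which was so for 7.8% of all genes. The same 5 were higher in each of the 3 lines, as were 15.9% of all genes. At an unadjusted p below 0.05 there were 3 members, DCN, POSTN and LOX, beside 15.8% of all genes.

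POSTN had the smallest p, with a log2 change of 1.88 ± 0.51 (SE, n = 3 and 3 arrays, adjusted p = 0.155). LOX had a change of 2.03 ± 0.73 (adjusted p = 0.248) and DCN of 2.89 ± 1.11 (adjusted p = 0.272). The remaining proteoglycans had changes of 2.45 ± 1.25 (BGN) and 0.59 ± 0.89 (LUM), and FBLN5 one of 3.07 ± 1.54. SPARC, TAGLN and FN1 had changes of 0.70 ± 0.36, 0.68 ± 0.71 and 0.22 ± 0.49. MGP had the widest error, at 6.10 ± 3.56, and with values below 4 set to 4 its change was 2.30. That floor took FBLN5 to 1.88 and BGN to 1.95 and left the count without overlap at 4, since FBLN5 in Shef1 was dim in both groups. Without Shef3 in every group the changes were 1.496 for MGP, 1.09 for BGN, 1.93 for FBLN5, 1.63 for DCN and 0.02 for LUM, and without H14 they were 0.16 for TAGLN and 1.28 for LOX.

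The change differed in size between the lines. In Shef3 the members' median was 2.07 and 8 of 10 were higher, 7 of them by at least 1, against 38.9% and 15.6% of all genes. In H14 the median was 2.46 and all 10 were higher, 8 by at least 1, against 38.7% and 14.1%. In Shef1 it was 0.34, with 6 of 10 higher and none by at least 1, against 52.7% and 12.3%. The differences of DCN and FBLN5 were smallest in Shef1 (0.83 and 0.88), larger in H14 (2.42 and 2.99) and largest in Shef3 (5.41 and 5.35), and POSTN was 0.71 higher in Shef1 against 2.52 in H14 and 2.42 in Shef3. The negative differences in Shef3, of -0.008 for FN1 and -0.24 for TAGLN, turned positive after quantile normalisation.

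The second comparison asks how the genes changed over 14 days with FGF3 and FGF10. None of the 10 members passed in limma (adjusted p = 0.587 to 0.931), where 0.177% of all genes were called, and none had an unadjusted p below 0.05, beside 12.0% of all genes. Means were higher than in hESC for 7 members and lower for LUM, FN1 and TAGLN, and the groups overlapped for every member, whereas 5.68% of all genes lay fully above and 11.3% fully below hESC. The median change was 0.55 in the members and -0.19 over all genes. It was -0.58 without the FGF3+10 array of Shef3 and -0.57 without Shef3 in every group. Without the FGF3+10 arrays of H14 or Shef1 it was 0.89 and 0.86, without Shef1 in every group 1.26, and without the hESC arrays of Shef3, H14 or Shef1 0.17, 0.32 and 0.91.

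Behind these means the lines moved apart. In Shef3 9 of 10 members were higher than at day 0 with the FGFs, with a median of 2.07, the exception being FN1 at -0.01. In H14 5 were higher and 5 lower, with a median of 0.01, and in Shef1 all 10 were lower, with a median of -1.03. Over all genes 36.1%, 37.7% and 53.5% were higher in Shef3, H14 and Shef1, and 46.5% were lower in Shef1. With values below 4 set to 4, 5 members were higher and 3 lower in H14, and 9 were lower in Shef1. FBLN5 was dim in both groups in these lines, and so was MGP in H14. After quantile normalisation 6 were higher and 4 lower in H14, and all 10 stayed lower in Shef1. LUM, for instance, differed from day 0 by 0.97 in Shef3, -0.70 in H14 and -2.48 in Shef1. BGN differed by 5.75, 0.25 and -2.55 and LOX by 1.94, 0.13 and -1.06 in the same order.

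**Figure D2:**
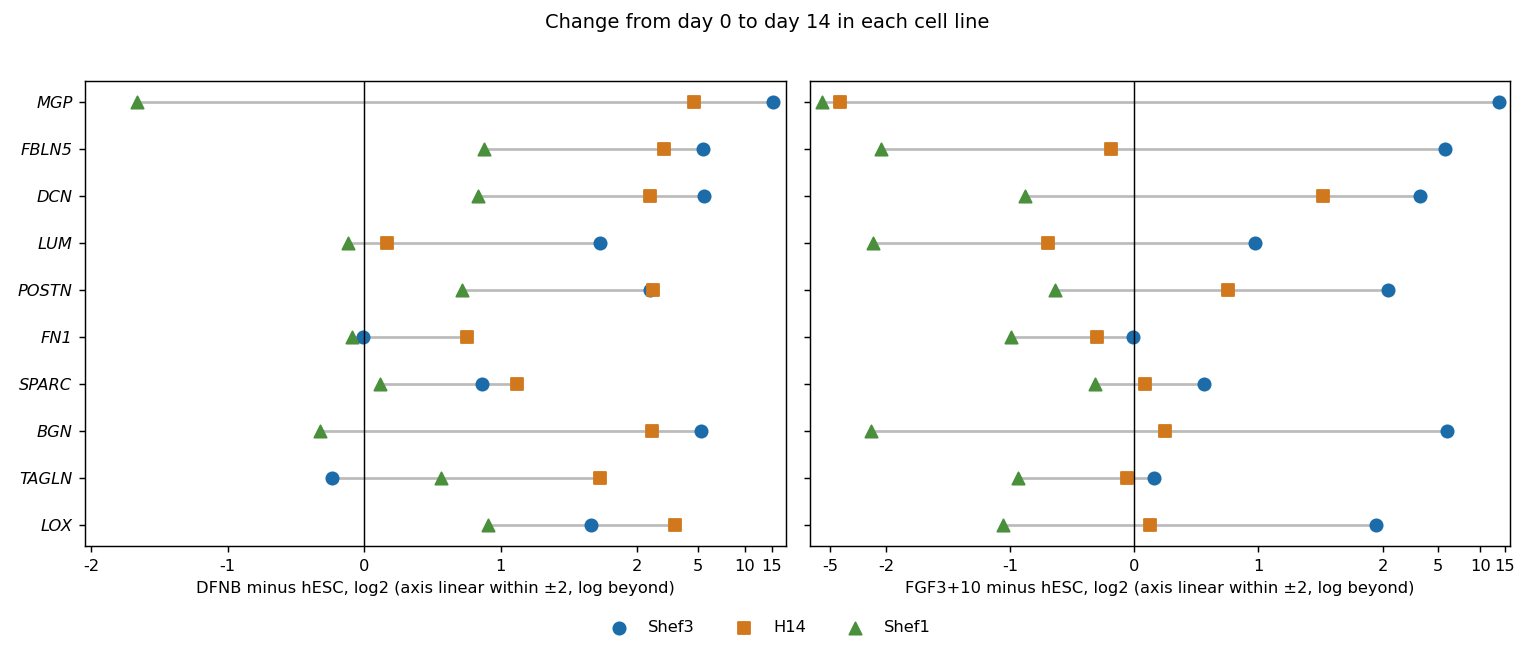
Change from day 0 in each cell line for DFNB (left) and FGF3+10 (right) on the log2 scale, with the axis linear within 2 units of 0 and logarithmic beyond; each point is 1 array minus the hESC array of its line. With the FGFs Shef3 stands rightmost and Shef1 leftmost for every gene, and all 10 Shef1 points lie left of 0.

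The third comparison asks what the added FGFs changed at day 14. All 10 members had a lower mean in FGF3+10 than in DFNB, and none passed (adjusted p = 1 for each in limma), as was the case for all genes, of which 0.0% were called. The members' median difference was -1.31, against 0.00 over all genes. Only LOX had an unadjusted p below 0.05 (difference -1.70 ± 0.73, unadjusted p = 0.0468, lower in 2 of 3 lines), where 1.52% of all genes did. POSTN followed at -1.11 ± 0.51, lower in 3 of 3 lines, and the groups overlapped for each of the 10, as for all but 1.72% of genes that lay fully below and 1.46% fully above. Ordered by group means, DFNB was highest for every member, FGF3+10 came next for 7 and hESC for 3, and no neighbours in that order differed beyond the spread between lines by the test.

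The difference was found in H14 and Shef1. In each of these lines 10 of 10 members were lower with the FGFs, against 44.5% of all genes in H14 and 47.0% in Shef1, and 8 of 10 were lower by at least 1, against 10.7% and 8.95%. The median of the members was -1.77 (H14) and -1.84 (Shef1), where all genes had medians of 0.08 and 0.03. In Shef3 6 of 10 were lower, beside 60.1% of all genes, 2 of them by at least 1, beside 9.31%, and the median was -0.11 in the members and -0.10 over all genes. The counts of 10 lower members in H14 and in Shef1 were the same after quantile normalisation and with the mean of each gene's probe sets, while in Shef3 FN1 turned from lower to higher under both. With values below 4 set to 4, 10 members remained lower in H14 and 8 in Shef1, where FBLN5 and MGP were dim in both media. The median over the 3 lines was -0.42 without the FGF3+10 array of Shef1, -2.17 without that of Shef3 and -0.84 without H14 in every group. Without that Shef1 array the differences were -0.45 for FBLN5, -0.39 for DCN, -0.28 for LUM, -0.21 for FN1, -0.50 for BGN and -0.36 for TAGLN. Since each line had 1 array per medium, whether the difference varies between lines could not be tested.

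By role, the cross-linking enzyme gene LOX had opposite signs in Shef3 and the other lines. It was 0.28 higher with the FGFs in Shef3, and its difference was -3.40 in H14 and -1.97 in Shef1. FBLN5 was 0.24 higher in Shef3, with -3.18 and -3.05 in H14 and Shef1, but with the floor of 4 its differences were 0.24, -2.61 and 0, since both Shef1 arrays were dim. Among the proteoglycans BGN differed by 0.57, -2.25 and -2.22. DCN and LUM did not: they were lower in all 3 lines, with differences of -1.71, -0.90 and -1.72 for DCN and of -0.75, -0.86 and -2.36 for LUM. FN1 differed by -0.005, -1.05 and -0.91, POSTN by -0.22, -1.76 and -1.36 and SPARC by -0.30, -1.03 and -0.43. TAGLN was 0.40 higher in Shef3, with -1.79 and -1.50 in the others, and MGP differed by -1.77, -8.92 and -4.04, or by -1.77, -0.95 and 0 with the floor of 4. Being lower in all 3 lines, which held for MGP, DCN, LUM, POSTN, FN1 and SPARC, was found for 12.5% of all genes.

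**Figure D3:**
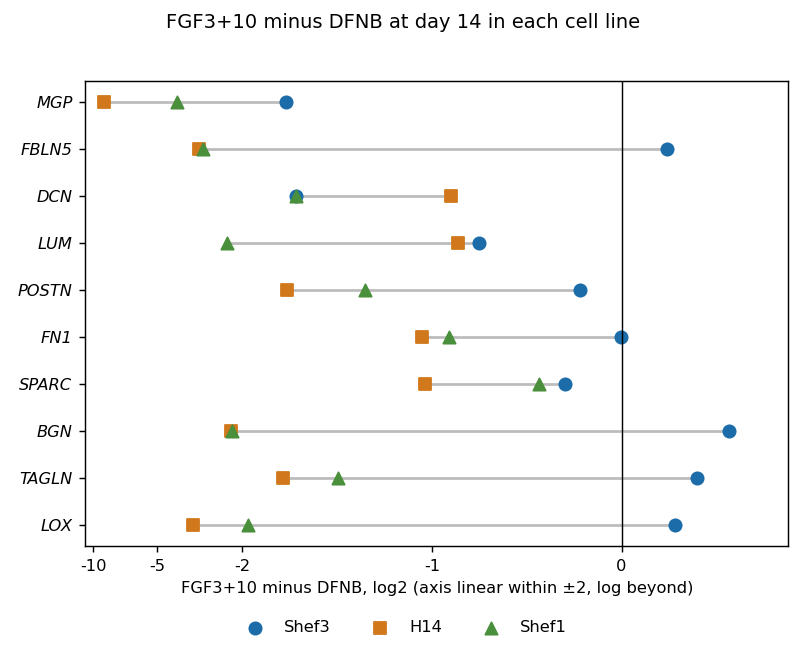
FGF3+10 minus DFNB at day 14 for each gene (rows) on the log2 scale, with the axis linear within 2 units of 0 and logarithmic beyond; each point is the difference between the 2 arrays of a cell line. All H14 and Shef1 points lie below 0, and 4 of the 10 Shef3 points lie above it.

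The other probe sets of the same genes gave much the same picture. Of all 34, 32 were lower with the FGFs in H14, 32 in Shef1 and 18 in Shef3, with medians of -1.53, -1.54 and -0.005. The exceptions in H14 and Shef1 were the minor probe sets of MGP and DCN that lay below 4 on all 9 arrays. From hESC to DFNB 26 were higher in Shef3, 32 in H14 and 18 in Shef1. With the FGFs the numbers higher than in hESC were 30, 18 and 3. In Shef1 they included a minor TAGLN probe set, at 4.77 in hESC and 5.65 with the FGFs. For FN1, 4 probe sets with group means above 11 gave differences between FGF3+10 and DFNB of -0.57 to -0.68, and 1 of its dimmer ones, at 5.77 in hESC, gave -1.78. That probe set was also the only one of the 7 whose mean was lower in DFNB than in hESC, by -0.48. All 3 probe sets of LOX were higher in DFNB than in hESC, by 1.30 to 2.75, and so were the 7 of DCN, by 0.0007 to 3.51.

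The arrays on which the members peaked were few. Of the 10 members 6 had their highest level in H14 in DFNB (POSTN, FN1, SPARC, BGN, TAGLN and LOX), 3 in Shef3 in DFNB (MGP, DCN and LUM) and FBLN5 in Shef3 with the FGFs, against 10.5%, 8.3% and 5.68% of all genes. The Shef1 array with the FGFs was among the 3 lowest for all 10 and the lowest of all for 6, against 11.5% of all genes. That array also had the highest ACTB 3' minus 5' difference, 0.69, with a members' mean of 6.45. The hESC array of Shef1 had nearly the same difference, 0.66, with a members' mean of 8.23. The highest GAPDH difference, 0.53, was that of the hESC array of Shef3, where MGP, POSTN and BGN were lowest. The part of RNA quality in these levels was not tested. Differences between the lines themselves were tested as well. The F test for differences between lines, in a model of group and line, called no member in limma (adjusted p = 0.219 to 0.954) and 0.46% of all genes. LUM, FN1 and TAGLN had an unadjusted p below 0.05, beside 20.3% of all genes, and their means were highest in Shef3 (10.29, 12.45 and 11.89), next in H14 (9.90, 12.31 and 11.09) and lowest in Shef1 (8.35, 11.45 and 10.28). The interaction of line and day, which takes both media of a line as its day 14 arrays, called no member (adjusted p = 0.245 to 0.832) and 0.0% of all genes. BGN was the 1 member with an unadjusted p below 0.05 (19.4% of all genes), and its day 14 change was 5.46 (Shef3), 1.38 (H14) and -1.44 (Shef1). The spread in that test comes only from the pairs of day 14 arrays, which differ in medium, so it does not measure repeats of a line.

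The 10 members varied together over the 9 arrays. All 45 pairs had a Pearson correlation above 0, with a median of 0.75, and 30 reached 0.7. These correlations are descriptions, since the arrays share lines, media and the scaling of each array. The same values over all pairs of genes are not given here, so whether they are particular to the members cannot be told. The highest value, 0.93, joined FBLN5 and DCN, followed by 0.92 for FN1 and TAGLN and 0.91 each for POSTN with LOX and FBLN5 with SPARC. The lowest was 0.29, for BGN and TAGLN, and FN1 correlated at 0.32 with BGN and at 0.33 with POSTN. The 4 lowest pairs joined FN1 or TAGLN with BGN, POSTN or MGP, the 3 members whose lowest level of all arrays was in undifferentiated Shef3.

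Among 5358 other genes with a mean of at least 4 and an SD of at least 0.5, the 2 most alike in pattern to each member were taken. EMILIN1, an elastic fibre glycoprotein, had the highest correlation with LUM (r = 0.98, n = 9 arrays), and AQP1, a water channel, followed (0.96). FBN1, the fibrillin of elastic microfibrils, came next to TBC1D19 for POSTN (0.97 and 0.99), and LTBP2, a latent TGF-beta binding protein, was first for LOX (0.97) before MBNL1-AS1 (0.97). CAVIN1, a coat protein of caveolae, was first for TAGLN (0.99) with ITPRIPL2 (0.97), and EMP3 and EHD2 for FN1 (0.98 and 0.97). For DCN they were GHR, the growth hormone receptor, and SMARCA2 (0.97 each), for FBLN5 ARHGAP31 and ST3GAL5 (0.98 each), and for SPARC PDLIM2 and BNC2 (0.98 and 0.97). BGN was most like UEVLD and CNRIP1 (0.96 and 0.95) and MGP like PCDHB16 and SCG2 (0.94 and 0.93).

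Promoters were examined for the 6 members with an entry in the RefSeq table, which left out MGP, DCN, LUM and TAGLN. The 250 bases before the annotated start (GRCh38.p14, read 5′ to 3′ on the strand of the gene) are shown for 4 of these. They are those whose DFNB arrays did not overlap with hESC at the main probe set. Capitals mark matches on either strand to the TATA box (TATAAA), the AP-1 motif (TGANTCA), the GC box (GGGCGG) and the CAGA box of SMAD proteins (CAGAC).
POSTN, chr13:37598769-37599018, minus strand: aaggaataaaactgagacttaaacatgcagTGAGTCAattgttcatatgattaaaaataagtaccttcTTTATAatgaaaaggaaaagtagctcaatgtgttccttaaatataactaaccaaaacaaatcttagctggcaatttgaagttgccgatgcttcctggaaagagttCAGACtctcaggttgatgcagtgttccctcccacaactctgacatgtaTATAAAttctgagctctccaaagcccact
LOX, chr5:122078260-122078509, minus strand: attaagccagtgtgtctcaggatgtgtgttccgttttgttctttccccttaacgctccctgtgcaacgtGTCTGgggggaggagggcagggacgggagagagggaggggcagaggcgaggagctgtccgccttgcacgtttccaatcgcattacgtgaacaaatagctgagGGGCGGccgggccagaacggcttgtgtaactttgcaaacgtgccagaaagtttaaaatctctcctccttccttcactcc
SPARC, chr5:151686916-151687165, minus strand: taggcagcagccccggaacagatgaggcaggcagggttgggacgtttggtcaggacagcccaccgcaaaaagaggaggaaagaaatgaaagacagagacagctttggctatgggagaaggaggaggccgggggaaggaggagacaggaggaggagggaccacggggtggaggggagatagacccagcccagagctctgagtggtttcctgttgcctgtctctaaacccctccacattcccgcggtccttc
FBLN5, chr14:91947695-91947944, minus strand: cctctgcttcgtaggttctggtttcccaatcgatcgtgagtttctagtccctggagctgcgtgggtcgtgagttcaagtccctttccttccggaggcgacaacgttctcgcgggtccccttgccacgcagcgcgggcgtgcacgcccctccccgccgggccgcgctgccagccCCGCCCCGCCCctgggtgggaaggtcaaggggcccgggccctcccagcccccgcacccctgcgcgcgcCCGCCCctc

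POSTN was the 1 member of the 6 with an exact match to TATAAA, found in 10.7% of 35116 promoters. Variants of the TATA box were not searched. The matches of POSTN began 182 and 29 bases before the start. It also held the only AP-1 match, 220 bases before the start (6.57% of promoters), and a CAGA box at 77. GC boxes, held by 42.6% of promoters, occurred in FBLN5, FN1, BGN and LOX, with 3 in FBLN5 at 77, 72 and 9 bases before the start, the first pair overlapping, and 1 in LOX at 79. LOX had a CAGA box at 181 (38.0% of promoters), and SPARC had none of the 4 motifs. The windows differed in composition as well, with 36.4% G and C in POSTN, 55.2% in LOX, 59.2% in SPARC and 71.6% in FBLN5, against a median of 58% over all promoters. These are matches of letters in a window and say nothing about binding.

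Other genes of the matrix were read from lists. No member of these lists passed in any of the 3 comparisons in limma. Of 19 other fibulins and elastic fibre proteins, 16 had a higher mean in DFNB than in hESC and 16 a lower mean with the FGFs, with medians of 0.92 and -0.26. With the FGFs they were lower than in DFNB for 16 in H14, 16 in Shef1 and 10 in Shef3. FBN2, a fibrillin, was an example of another course: its mean was 8.84 ± 1.02 (SD, n = 3) in hESC and 10.90 and 10.86 in DFNB and FGF3+10, which did not pass in limma (adjusted p = 0.121 and 0.151), and its difference between media was -0.03. MFAP2, a microfibril protein, differed by -0.20 between media.

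The 4 other lysyl oxidases all had lower means with the FGFs (median -0.81), with 4 lower in H14, 3 in Shef1 and 2 in Shef3. LOXL2 differed between media by 0.10 in Shef3, -1.65 in H14 and -0.97 in Shef1, and LOXL1 by -0.09, -1.15 and -1.11, in the order seen for LOX. Among 23 other matricellular proteins the median was 0.70 from hESC to DFNB, with 16 higher, and -0.49 between media, with 16 lower. CCN2, a target of TGF-beta and YAP signalling, differed between media by 0.77 in Shef3, -1.53 in H14 and -0.84 in Shef1. FSTL1, a SPARC-related glycoprotein, differed by 0.33, -0.64 and -0.32.

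Other small leucine-rich proteoglycans as a list did not share the course of the members, but most of them were dim. Their mean level per array was 2.30 to 3.20, and 3 to 6 of them reached 4 on each array. Of 14, 7 were higher and 7 lower in DFNB than in hESC (median 0.13), and 6, among them KERA and EPYC, lay below 4 on all arrays. Between media the median was -0.18, with TSKU at -0.20 and FMOD at -1.19. The difference of FMOD was largest in Shef3, at -2.96, against -0.43 in H14 and -0.17 in Shef1. Vitamin K cycle and other Gla proteins, the enzymes and relatives of MGP, had medians of -0.04 from hESC to DFNB and -0.09 between media over 8 genes. VKORC1 and VKORC1L1, which recycle vitamin K, differed by -0.15 and 0.01 between media. Fibronectin and periostin receptor subunits, 8 measured, were all lower with the FGFs in H14 and in Shef1, but 7 were higher in Shef3, with medians of -0.57, -0.59 and 0.28. ITGB1, the common beta chain, differed by 0.02 in Shef3, -0.76 in H14 and -0.28 in Shef1, and ITGAV by 0.42, -0.54 and -0.88. TGF-beta ligands, receptors and targets, 13 measured, had medians between media of 0.17, -0.95 and -0.67, and TGFBR1 and SKIL had differences of means of -0.26 and -0.09.

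Marker lists of the cell types such cultures could hold moved with the members to different degrees. The 17 measured mesenchymal markers had a mean level per array of 5.50 to 6.28 in hESC, 6.28 to 7.31 in DFNB and 4.91 to 6.96 in FGF3+10, where 1, MEOX2, lay below 4 on all arrays. The mean over the 10 members was 6.64 to 8.23, 8.41 to 10.40 and 6.45 to 10.08 in the same groups, and the 2 means correlated at 0.98 over the 9 arrays. Between media 16 of the 17 were lower on average, 15 in H14, 15 in Shef1 and 9 in Shef3. SNAI2, a regulator of the epithelial to mesenchymal transition, differed between media by -0.09 in Shef3, -1.16 in H14 and -1.17 in Shef1. VIM, an intermediate filament of many cell types, differed by 0.03, -0.54 and 0.10.

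The 13 smooth muscle markers, all measured, had mean levels of 6.89 to 7.71, 7.37 to 7.98 and 6.79 to 8.12 in the 3 groups (r = 0.74 with the members' mean), with DES below 4 on all arrays. Between media 11 of the 13 were lower with the FGFs on average (median -0.43), 12 in H14, 11 in Shef1 and 5 in Shef3. TPM1 and CALD1 differed by -0.32 and -0.43. Of 10 endothelial markers 4, CDH5, ESAM, EMCN and CLDN5, lay below 4 on all arrays, and the mean level was 2.14 to 3.48 on all 9 arrays (r = 0.54). TEK and KDR differed between media by -0.18 and -0.17. Of the 10, 7 were lower with the FGFs on average, 2 in H14, 7 in Shef1 and 7 in Shef3. The 14 neural crest markers had means of 5.19 to 6.19, 6.36 to 6.60 and 5.93 to 6.67 (r = 0.29). Between media 11 of them were lower with the FGFs on average (median -0.33), 7 in H14, 11 in Shef1 and 12 in Shef3. MSX2 differed by -0.27 and SNAI2, which is on this list too, by -0.81. The 16 neural progenitor markers had means of 5.18 to 5.82, 5.98 to 8.07 and 7.01 to 8.35 (r = -0.03), and 5 were lower with the FGFs than in DFNB on average. SIX6, a factor of the eye field, rose by 8.04 ± 1.07 from hESC to FGF3+10 (adjusted p = 0.0357 in limma). Its hESC levels of -1.73, -1.78 and -1.08 were dim, against 5.74, 6.52 and 7.27 with the FGFs, so this size is not a fold.

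Pluripotency markers had a lower mean at day 14 in each line and medium. Over 13 genes it was 9.98 (Shef3), 9.43 (H14) and 8.60 (Shef1) at day 0, then 2.55, 5.99 and 7.61 in DFNB and 2.45, 7.45 and 7.65 in FGF3+10, with no gene called (r = -0.84 with the members' mean over the 9 arrays). From hESC to FGF3+10 both means were lower in H14 and in Shef1, while in Shef3 the members' mean was higher. In H14 the members did not fall as a set: 5 were higher and 5 lower, with a median change of 0.01. MGP had the largest fall there, from 0.29 to -3.97, both dim, and with the floor of 4 its change was 0. Between media, 12 of 13 pluripotency markers were higher with the FGFs in H14, with a median of 1.46, and 9 of 13 in Shef1, with a median of 0.16. LIN28A and TERF1 differed between media by 1.83 and 1.17 in H14 and by 0.36 and 0.59 in Shef1. The part of mesenchymal and of remaining pluripotent cells in the members' levels was not tested.

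**Figure D4:**
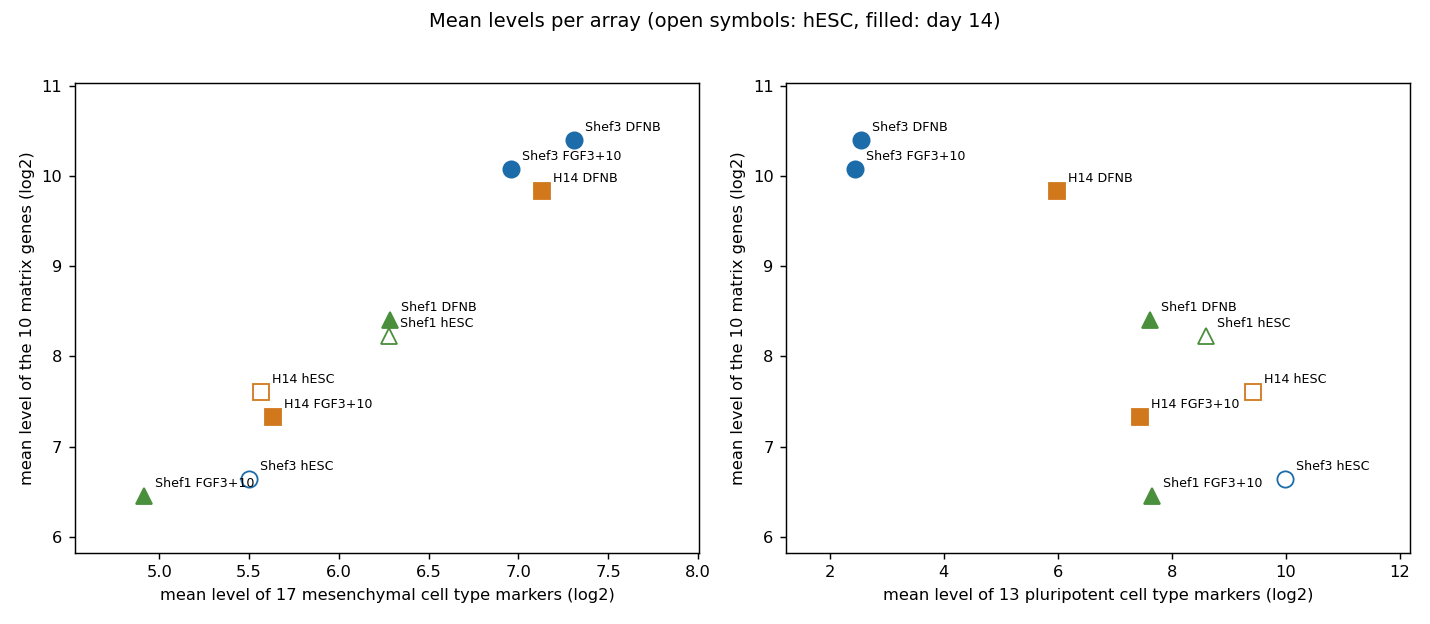
Mean level of the 10 genes on each array (vertical axis, log2) against the mean of 17 mesenchymal markers (left) and of 13 pluripotency markers (right); open symbols are hESC arrays and filled symbols day 14 arrays. The genes rise with the mesenchymal markers (r = 0.98, n = 9), and both Shef3 day 14 arrays combine low pluripotency markers with high levels of the 10 genes.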

How the data were processed

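RNA of 9 cultures was measured on arrays, 1 each, and arrays have no read depth, so that their number limits the precision. The authors deposited 1 value per probe set, read here as log2 because the values are on a log scale whose base no source names. Software, background correction and probe summary: not given in the sources used here. Of 54675 probe sets, 41091 had 1 gene symbol, 1801 had several and 11721 other than 62 controls had none in the annotation used; symbols were updated through 41037 matched Entrez identifiers, giving 19775 genes, each read at its probe set with the highest mean.

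Groups were compared with limma 3.58.1 (R 4.3.3; lmFit, eBayes) on all genes, with Benjamini-Hochberg adjustment and a threshold of 0.05, from a mean per group and 1 shared spread. Cell lines were compared by moderated F tests, in a model of group and line and in one of line, day and their interaction. The fits were tested on simulated data. The members, the gene lists and the tests were chosen with earlier results of these data known. Genes named from a list are its called members or, with none called, the 2 with the highest mean; genes alike in pattern are the 2 of highest Pearson correlation with a member.

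Each line occurs once in every group, so the label of the line pairs the arrays. After subtracting group means, arrays of a line correlated between FGF3+10 and DFNB at 0.40 (Shef3), 0.33 (H14) and 0.71 (Shef1). With hESC the values were 0.18, 0.26 and 0.28 for FGF3+10, then 0.11, 0.09 and 0.34 for DFNB. Alternatives were quantile normalisation, the mean of probe sets, all probe sets as features, a filter on dim genes, a floor of 4, array weights, cell line as a block, and leaving out each array or line. Promoter sequences came from RefSeq; 6 of the 10 members matched.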

Additional observations from a re-analysis of the deposited data

Results flagged for a closer look

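For 3 genes the differences from day 0 had opposite signs between cell lines on both day 14 arrays. MGP, LUM and BGN were higher in Shef3 and lower in Shef1, and these lines' day 14 changes differed by 18.1, 2.65 and 6.9 log2 units between these lines. For BGN H14 was also higher while Shef1 was lower, with a difference of 2.81. For LUM the sign in Shef1 depends on the probe set: in DFNB the difference was -0.12, and the other probe set went from 4.76 to 5.10. The pairwise differences were not tested; the joint test of the 3 lines gave adjusted p = 0.268 for MGP, 0.517 for LUM and 0.245 for BGN in limma. The value of MGP rests on levels far below 4.

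Between media, 4 genes were higher with the FGFs in Shef3 and lower in both other lines. The difference in Shef3 exceeded the mean of the others by 3.36 for FBLN5, 2.8 for BGN, 2.04 for TAGLN and 2.97 for LOX. The value of FBLN5 rests on dim levels: with values below 4 set to 4, the lines differed by 0.24 (Shef3), -2.61 (H14) and 0 (Shef1). This was not tested, since each line had 1 array per medium.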

How the results depend on the processing

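No member was called in any of the 5 tests under quantile normalisation, the mean of probe sets, all probe sets as features, the filter on dim genes (which leaves out MGP) or the floor of 4. Nor was one called in the 3 comparisons of groups without any array or line, or between lines without a line; the interaction was not refitted without arrays. The fit with cell line as replicate block changed no call of a member; for POSTN between DFNB and hESC it gave adjusted p = 0.138. Array weights called 1 member between DFNB and hESC, POSTN (2.12, adjusted p = 0.0245), and 4 between lines, LUM, DCN, FBLN5 and FN1; that fit called 1612 and 4475 genes in all, and the cause was not tested. From hESC to FGF3+10, MGP turned to -1.58 with array weights and TAGLN to 0.0457 with the mean of probe sets and 0.00883 after quantile normalisation; the cause was not tested. The other 203 of 207 such values for single members kept their direction and side of the threshold. With an array or line left out, changes from hESC to FGF3+10 ran from -4.98 to 4.64 for MGP, -1.18 to 2.70 for FBLN5, -1.59 to 0.31 for LUM, -0.81 to 0.00917 for FN1, -0.14 to 0.33 for SPARC, -1.15 to 3 for BGN, -0.98 to 0.32 for TAGLN and -0.51 to 1.04 for LOX, and that of FN1 from hESC to DFNB from -0.0557 to 0.54. None of the differences between FGF3+10 and DFNB changed sign in these fits, but they ran from -8.64 to -2.37 for MGP, -3.73 to -0.45 for FBLN5, -2.36 to -0.39 for DCN, -2.10 to -0.28 for LUM and -2.69 to -0.84 for LOX. From hESC to DFNB they ran from 1.496 to 9.98 for MGP, 1.09 to 3.84 for BGN, 0.02 to 1.12 for LUM, 0.16 to 1.17 for TAGLN and 1.63 to 3.91 for DCN.

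The number of genes called over the whole table moved more: from 40 between DFNB and hESC to 189 with the block, 183 with the floor, 122 without dim genes, 63 over probe sets and 0 to 72 without an array or line. Between FGF3+10 and hESC it was 35, 115 with the block, 123 with the floor, 66 without dim genes, 284 with array weights and 0 to 32 without an array or line. Between lines it was 91, and 58 to 491 in the fits of other values and 4 to 9 without a line. The floor called 1744 genes for the interaction of line and day. Between FGF3+10 and DFNB it stayed at 0, with 300 genes at an unadjusted p below 0.05. With 3 arrays a group and dim values of wide spread, MGP and FBLN5 have the least precise values.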
